A study of Mus musculus with 6 samples.

Results

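The messenger RNA of 10 genes of the IL-1 and IL-18 system was examined in splenic monocytes of mice given vancomycin or water: the cytokines Il1b and Il18, their inhibitors Il1rn and Il18bp, the decoy receptor Il1r2, and the receptor chains Il1r1, Il1rap, Il1rl1, Il18r1 and Il18rap. They were taken by gene symbol. Each symbol stood on a single row of the count table and of the FPKM table, 10 of the 46072 gene identifiers in each, and all 10 had enough counts to be tested.

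Interleukin-1β (IL-1β) and IL-18 are cytokines of 1 family that myeloid cells make as inactive precursors, which caspase-1 cuts once an inflammasome has formed. Each acts through a receptor built of a ligand-binding chain and an accessory chain, and each is held back by its own inhibitors, such as the receptor antagonist Il1rn, the decoy receptor Il1r2 and the soluble binding protein Il18bp. Monocytes are a major source of IL-1β, while the receptor for IL-18 is best known on natural killer (NK) cells and T cells.

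The monocytes came from female C57BL/6 mice, given in the study's methods as 8 to 10 weeks old. In the Con group (n = 3 mice) water was gavaged for 6 days, and in the Van group (n = 3 mice) vancomycin was gavaged at 2 mg per mouse and day, as 1 mg doses. Both groups then rested for 6 to 8 days without antibiotic, so that the animals were not on the drug when spleens were taken. That range is from the labels, and the study's text gives its upper end, 8 days, for the sequenced mice. The cells were enriched with a magnetic bead kit, which in the study's methods leaves cells that carry CD11b and lack CD3e, CD45R, CD117, Ly-6G, NK1.1 and Siglec F, and were not stimulated, and the comparison asks how their gene expression differed after a vancomycin course. Of 6 libraries, the smallest held 43383919 and the largest 61834407 estimated counts. The summed FPKM (fragments scaled per kilobase of transcript and to the library) of 10 monocyte markers was 10709 to 11263 in Con and 9618 to 10978 in Van. Most of this sum was Lyz2, a lysozyme of myeloid cells, at 7663 to 8324 FPKM in Con and 6428 to 8246 in Van, while Fcgr1 was the lowest of the list, at 23.8 to 25.1 FPKM in Con and 19.1 to 20.7 in Van. Within that list 3 genes had a positive and 7 a negative log2 fold change (median -0.15). Ccr2, the receptor that draws monocytes out of the marrow, fell by 0.83 on the log2 scale, and Fcgr1, the high-affinity IgG receptor, by 0.32 (edgeR, adjusted p = 0.0283 and 0.0328). Cd14, a co-receptor for lipopolysaccharide, was at 0.28 (edgeR, adjusted p = 0.101), without overlap of the groups. DESeq2 called these 3 genes and Itgam, and limma on log2(FPKM + 1) values called 0 of the list. Over all genes, edgeR called 2.00% and DESeq2 7.36%.

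The 10 genes spanned a wide range of levels. On the length-scaled FPKM values, Il1b was the most abundant, at a mean of 176 FPKM over the 6 mice (range 140 to 216). Il18 came next at 43.5 FPKM (range 40.4 to 50.7), and no mouse had as much Il18 as the lowest Il1b value. The inhibitors Il18bp and Il1rn followed at 14.0 and 12.2 FPKM, with ranges that overlapped. The accessory chain Il1rap and the decoy receptor Il1r2 also overlapped, at 4.97 and 4.74 FPKM. Il18r1 (0.745 FPKM), Il18rap (0.469), Il1r1 (0.273) and Il1rl1 (0.106) were the lowest, and the range of each overlapped that of the next in this order. The cytokines and their soluble inhibitors thus stood above the receptor chains, with Il1b at 1663 times the mean level of Il1rl1. The scarce genes rested on few estimated counts per library, 12 to 60 for Il1rl1, 60 to 119 for Il1r1, 61 to 150 for Il18rap and 71 to 311 for Il18r1, against 11564 to 17749 for Il1b. If these counts are coverage divided by a read length of 75, each is worth about 0.375 of a fragment.

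**Figure D1:**
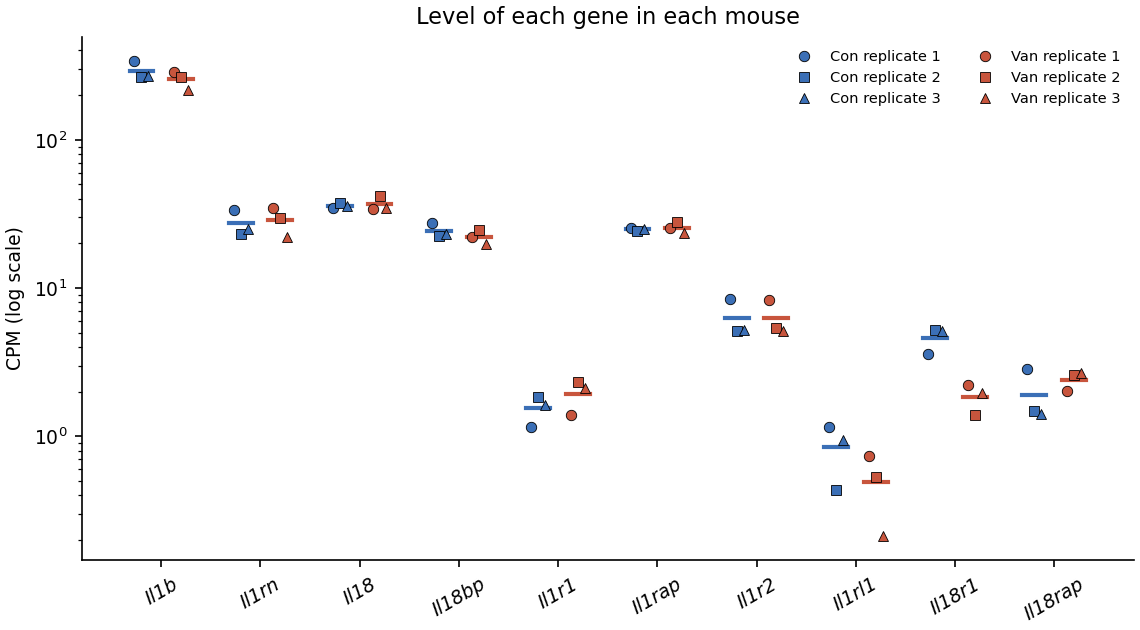
CPM (counts scaled to library size, log scale) of the 10 genes in each of the 6 mice, with Con in blue, Van in red, a marker shape for each replicate number and a horizontal line at each group mean. The Con and Van points of Il18r1 do not overlap, from 3.59 to 5.19 CPM in Con and from 1.39 to 2.22 CPM in Van, while those of the other 9 genes do.

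In Van against Con, Il18r1 was the only 1 of the 10 genes to be called, that is, to reach an adjusted p of 0.05 or less (quasi-likelihood test of edgeR, adjusted after Benjamini and Hochberg over all 16138 genes with enough counts). Calls were made for 2.00% of those 16138 genes, 1.08% higher and 0.917% lower in Van. Il18r1 encodes the ligand-binding chain of the IL-18 receptor. It was at 3.59, 5.19 and 5.15 CPM (counts scaled to library size, after normalization) in Con replicates 1, 2 and 3, and at 2.22, 1.39 and 1.95 CPM in Van replicates 1, 2 and 3. The highest Van mouse lay below the lowest Con mouse. Con averaged 4.64 ± 0.915 CPM and Van 1.86 ± 0.423 CPM (SD, n = 3 mice each). In log2 units Il18r1 fell by 1.32 (standard error 0.24, 95% interval of the log2 fold change -1.86 to -0.78, edgeR adjusted p = 0.0336). The Van level was thus 0.401 times that of Con. In the FPKM table the values were 0.914, 1.14 and 1.14 FPKM in Con and 0.472, 0.406 and 0.399 FPKM in Van, and these did not overlap either.

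The fall of Il18r1 kept its direction in each alternative fit that was run, but the call was lost when any 1 of 5 mice was left out. Without Con replicate 1 the adjusted p from edgeR was 0.0447. It was 0.109 without Con replicate 2, 0.143 without Con replicate 3, and 0.0593, 0.125 and 0.0967 without Van replicates 1, 2 and 3, with log2 fold changes from -1.48 to -1.15 over these 6 fits. With DESeq2 the adjusted p was 1.0e-04, where 7.36% of all genes with an adjusted p were called. DESeq2 made more false calls than edgeR in a single simulated data set. That set was drawn with the dispersions that edgeR estimated, a setting that may favour edgeR. With limma on log2(FPKM + 1) values the adjusted p was 0.0526, where 0.243% of genes were called. That Il18r1 is among the genes called in these libraries was already known when the 10 genes were chosen.

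Levels in bulk libraries cannot tell fewer cells of a type from less RNA per cell. The markers of other spleen cells are therefore given here beside Il18r1. Of all genes tested by edgeR, 22.5% had groups that did not overlap, 16.5% an unadjusted p under 0.05, and 2.00% were called. DESeq2 called 7.36% of all genes with an adjusted p. The counts of markers below are to be read beside these shares. The bead selection is directed at T cells (CD3e), B cells (CD45R), mast cells (CD117), neutrophils (Ly-6G), NK cells (NK1.1) and eosinophils (Siglec F). It is meant to remove these types, but the study's methods report a purity that is less than complete. Some cells other than monocytes could thus remain in the libraries. Of 10 NK cell markers, 6 were tested, 4 of these had a negative and 2 a positive log2 fold change (median -0.63), the positive being Klrb1c (0.43), which encodes NK1.1, and Gzmb (0.53), neither of them called. The 1 called was Klrk1, an activating receptor of NK and T cells, which was at 38.2, 24.7 and 31.2 CPM in Con and 20.8, 15.5 and 14.0 CPM in Van (log2 fold change -0.90, edgeR adjusted p = 0.0495). The summed FPKM of the NK cell list was 13.9 to 20.5 in Con and 7.63 to 12.6 in Van, without overlap, and without Klrk1 it was 4.44 to 6.82 in Con and 3.48 to 5.13 in Van, which overlapped. The NK cell receptor Ncr1 was listed at 0 in 4 of the 6 mice.

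Of 10 T cell markers, 9 were tested, 7 of these had a negative log2 fold change (median -0.33), and 0 were called by edgeR or by DESeq2. Cd3d, a chain of the T cell receptor complex, was the 1 with an unadjusted p under 0.05, with a log2 fold change of -1.14, no overlap of the groups and an adjusted p of 0.240 from edgeR. Cd3e, another chain of that complex, had a log2 fold change of 0.12. The summed FPKM of the T cell list was 12.8 to 16.8 in Con and 9.71 to 13.8 in Van. Of 9 markers of type 2 innate lymphoid cells, 7 were tested, 6 of these had a negative log2 fold change (median -0.53), 2 had an unadjusted p under 0.05 and 0 were called by edgeR (2 by DESeq2, Il7r and Thy1). Their sum was 7.18 to 8.19 FPKM in Con and 4.73 to 6.36 in Van, without overlap, and the cytokines Il5 and Il13 were listed at 0 in each mouse. For 8 of 8 B cell markers the log2 fold change was negative (median -0.53). For 3 of them the groups did not overlap (Blk, Pax5 and Cr2), as for 22.5% of all genes tested. Their sum was 10.9 to 14.4 FPKM in Con and 9.17 to 11.3 in Van, mostly Cd79b, and edgeR called 0 of them (1 had an unadjusted p under 0.05, Blk, which DESeq2 called).

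Among 8 conventional dendritic cell markers, 7 had a negative log2 fold change (median -0.19), and Clec9a, a receptor of type 1 dendritic cells, was called at -1.12 (edgeR adjusted p = 0.0131). DESeq2 called Clec9a and Xcr1. The sum of this list was 132 to 152 FPKM in Con and 114 to 138 in Van. Of 9 neutrophil markers tested, 7 had a negative log2 fold change (median -0.92) and 2 a positive one, Csf3r and Mmp8, which carried most of the FPKM. The sum was therefore higher in Van, at 113.7 to 140.7 against 110.0 to 113.6 FPKM in Con, while Retnlg had a log2 fold change of -2.59. EdgeR called 0 neutrophil markers (2 had an unadjusted p under 0.05) and DESeq2 called 1, Csf3r. Of 8 erythroid markers tested 5 rose by edgeR (Hba-a1, Hba-a2, Hbb-bs, Hbb-bt and Alas2), and the sum was 99.9 to 203 FPKM in Con and 343 to 773 in Van. Red pulp macrophage markers had a positive log2 fold change in 8 of 8 (median 0.19), with 0 called by edgeR, 4 at an unadjusted p under 0.05 and 1, Vcam1, called by DESeq2, and their sum was 1189 to 1431 FPKM in Con and 1375 to 1836 in Van. For plasmacytoid dendritic cells 4 of 7 were negative (median -0.09), with 0 called by edgeR, 3 at an unadjusted p under 0.05 and 1, Siglech, called by DESeq2. For eosinophils 4 of 5 were negative (median -0.28) and for basophils and mast cells 3 of 3 (median -0.41), with 0 called by edgeR or DESeq2 and 0 at an unadjusted p under 0.05. The part of any of these cells in the fall of Il18r1 was not tested.

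None of the other 9 genes was called by edgeR, and none had an unadjusted p under 0.05, the lowest being 0.174 for Il1b. DESeq2 called none of the 8 for which it gave an adjusted p, and it gave none for Il1rl1. The Con and Van mice overlapped for each of the 9 genes. Of all genes tested, 22.5% had groups that did not overlap, as Il18r1 did. Of the 9 genes 6 had a positive and 3 a negative log2 fold change. The 95% interval lay wholly between -1 and 1 for 7 of them, and it lay above the log2 fold change of Il18r1 for 8 of them, the exception being the scarce Il1rl1.

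**Figure D2:**
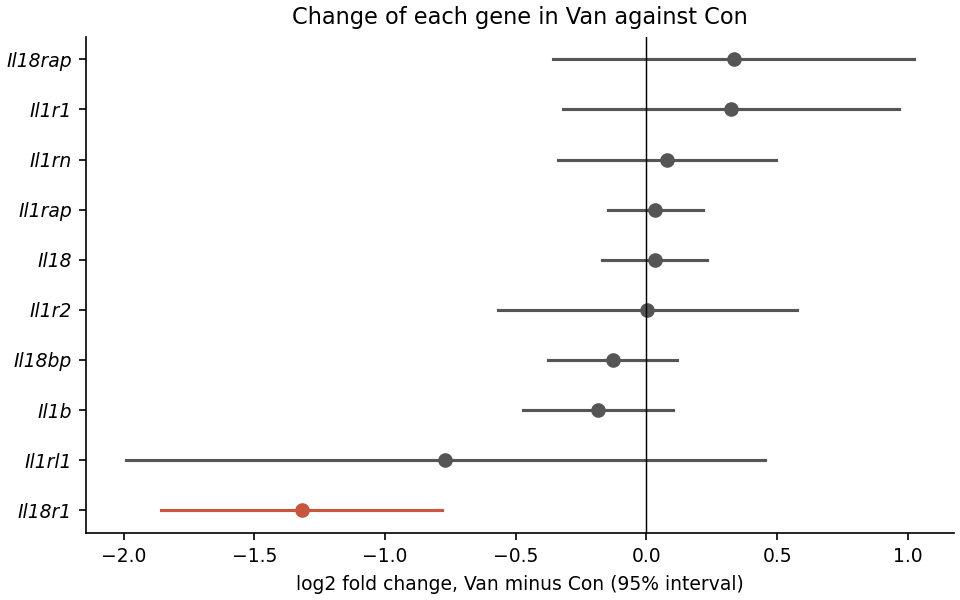
Log2 fold change in Van against Con of each of the 10 genes (points) with its 95% interval from edgeR (lines), ordered from the highest to the lowest, with called genes in red. The interval of Il18r1 runs from -1.86 to -0.78 and the intervals of the other 9 genes all hold 0.

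Among the cytokines, Il1b was at 342, 263 and 267 CPM in Con and at 284, 266 and 217 CPM in Van. Con replicate 1 stood above and Van replicate 3 below the other 4 mice, whose values lay between 263 and 284 CPM. The difference was -0.19 on the log2 scale (standard error 0.13, 95% interval -0.47 to 0.10, edgeR adjusted p = 0.527), and leaving out Con replicate 1 moved it to -0.056 and leaving out Van replicate 3 to -0.080. Il18 was steadier, at 34.6, 37.6 and 35.6 CPM in Con and at 34.0, 41.5 and 34.7 CPM in Van. The difference was 0.03 on the log2 scale (standard error 0.09, 95% interval -0.17 to 0.23), and it became -0.06 without Van replicate 2.

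Among the inhibitors, Il1rn, which occupies the IL-1 receptor without signaling, was at 33.6, 23.3 and 25.0 CPM in Con and at 34.7, 29.8 and 22.0 CPM in Van. The groups overlapped almost entirely (log2 fold change 0.08, standard error 0.18), and the sign turned without Con replicate 2 (-0.02), without Van replicate 1 (-0.08) and with limma on log2(FPKM + 1) values (-0.0022). Il18bp, which binds free IL-18, was at 27.4, 22.4 and 23.2 CPM in Con and at 22.2, 24.7 and 19.9 CPM in Van, a difference of -0.13 on the log2 scale (standard error 0.11). Leaving out Con replicate 1 moved it to -0.038, and the fits that left out Van replicates 3 and 2 gave -0.054 and -0.21. The decoy receptor Il1r2, which binds IL-1 but lacks a signaling domain, was at 8.39, 5.17 and 5.22 CPM in Con and at 8.33, 5.37 and 5.11 CPM in Van. Each group thus had 1 mouse, replicate 1, above the other two. The group means of Il1r2 were 6.26 and 6.27 CPM (log2 fold change 0.00378, standard error 0.25), and the sign turned in 3 of the 6 fits that left out 1 mouse.

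Replicate 1 had the highest CPM of its group for Il1b, Il1rn, Il1r2 and Il1rl1 in both Con and Van. The labels do not say how the replicate numbers were given. Whether mice of the same number belong together across the groups is therefore not known.

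Among the other receptor chains, Il1r1, the signaling receptor for IL-1, was at 1.16, 1.83 and 1.64 CPM in Con and at 1.39, 2.31 and 2.11 CPM in Van (log2 fold change 0.32, standard error 0.28, 95% interval -0.32 to 0.97). It moved to 0.15 when Con replicate 1 was left out, and the fits that left out Van replicates 1 and 2 gave 0.52 and 0.18. Its shared accessory chain Il1rap was nearly level, at 25.5, 24.3 and 25.1 CPM in Con and at 25.5, 27.7 and 23.5 CPM in Van (log2 fold change 0.03, standard error 0.08). That value became -0.03 without Van replicate 2. The exons of Il1rap overlap those of Gm20319 on the opposite strand over 552 bases, so that its value could hold reads of that gene if strand was not used in counting. Il1rl1, the receptor for IL-33, was at 1.16, 0.434 and 0.948 CPM in Con and at 0.735, 0.529 and 0.213 CPM in Van. The log2 difference of -0.77 had a standard error of 0.54 and a 95% interval from -1.99 to 0.45, which holds both 0 and the log2 fold change of Il18r1, so that its change was not determined. It moved to -0.47 when Con replicate 1 was left out, and the fits that left out Van replicates 1 and 3 gave -1.19 and -0.41.

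The accessory chain of the IL-18 receptor, Il18rap, was not called. It was at 2.85, 1.48 and 1.41 CPM in Con and at 2.01, 2.59 and 2.66 CPM in Van. In CPM, Con replicate 1 had the highest value of all 6 mice and the other Con mice the 2 lowest, and the groups differed by 0.33 on the log2 scale (standard error 0.30, 95% interval -0.36 to 1.03, edgeR adjusted p = 0.657). It was 0.74 without Con replicate 1, 0.18 without Con replicate 2 and 0.16 without Con replicate 3, and between 0.26 and 0.45 without each Van mouse. In FPKM, Il18rap was at 0.569, 0.275 and 0.246 in Con and at 0.402, 0.775 and 0.544 in Van, so that Van replicate 2 was the highest and the groups again overlapped. With limma the log2 difference was 0.22 on log2(FPKM + 1) and 0.61 on log2(FPKM + 0.1) values (adjusted p = 0.439 and 0.456). Per length, Il18r1 was above Il18rap in 3 of 3 Con mice and in 1 of 3 Van mice. The ratio of Il18rap to Il18r1 was 0.623, 0.241 and 0.216 in Con and 0.851, 1.91 and 1.36 in Van, so that every Van mouse lay above every Con mouse. This ratio averaged 0.360 ± 0.228 in Con and 1.37 ± 0.528 in Van (SD, n = 3 mice each), a difference of 2.03 on the log2 scale in FPKM. By an exact two-sided permutation test p = 0.1, which is the smallest p that 3 mice against 3 can give. The divisor Il18r1 was chosen with its fall known and separates the groups by itself. The separation of the ratio is thus no further support for that fall.

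**Figure D3:**
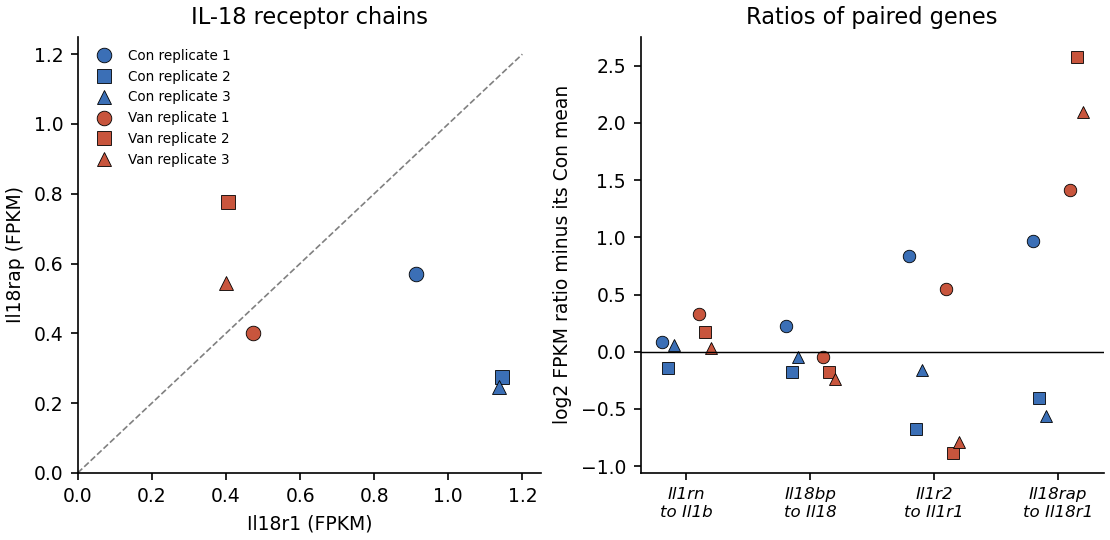
Left, FPKM of Il18rap against FPKM of Il18r1 in each of the 6 mice, with a dashed line where both are equal. Right, log2 ratio of FPKM for 4 gene pairs in each mouse, minus the mean of the Con mice. The 3 Con mice lie under the dashed line, and the ratio of Il18rap to Il18r1 is the only 1 of the 4 shown for which Con and Van mice do not overlap. Its divisor Il18r1 separates the groups by itself.

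The same was done against each of the other genes, as log2 CPM of Il18r1 minus log2 CPM of the other gene in each mouse. For 8 of the 9 genes every Van mouse was below every Con mouse, with changes in the difference between -1.14 against Il1b and -1.73 against Il18rap. Il18r1 was chosen with its fall known and separates the groups by itself. All these differences share it, so that they repeat that fall and give it no further support. On log2(FPKM + 1) values, where the pseudocount shrinks low genes, these changes were smaller, from -0.37 against Il1b to -0.74 against Il18rap. By the exact two-sided permutation test p = 0.1 for each of the 8, the smallest possible, so that none of these differences could pass a threshold of 0.05. The exception was Il1rl1, with a change of -0.49 (exact two-sided permutation test, p = 0.5), and this value was 0.02 without Con replicate 2. The other ratios of paired genes overlapped between the groups. In FPKM, Il1rn was at 0.0648 ± 0.00541 of Il1b in Con and at 0.0734 ± 0.00777 in Van, and Il18bp at 0.341 ± 0.0499 of Il18 in Con and at 0.304 ± 0.0205 in Van (SD, n = 3 mice each). Il1r2 exceeded Il1r1 in each mouse, by 12.6 to 35.9 times in Con and 10.9 to 29.5 times in Van.

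In the mouse genome, 5 of the 10 genes lie side by side with Il1rl2, the receptor for IL-36, within 477.6 kb of chromosome 1 (GRCm38, 40074079 to 40551705), all on the plus strand in the order Il1r2, Il1r1, Il1rl2, Il1rl1, Il18r1 and Il18rap. Il18r1 spans 40465552 to 40500854, with 12 merged exons. It starts 136 bases after the end of Il1rl1 and ends 14507 bases before the start of Il18rap (40515362 to 40551705). Of these 6 genes Il18r1 was the only 1 called. Il1rl2 had a log2 fold change of -0.70 (standard error 0.36), at 1.52, 1.73 and 1.11 CPM in Con and 0.850, 0.549 and 1.29 CPM in Van, and it was not called (edgeR, adjusted p = 0.383). The remaining genes of the 10 lie elsewhere, Il1rn (24336853 to 24351494, plus strand) and Il1b (129364570 to 129371139, minus strand) on chromosome 2, Il18bp on chromosome 7 (102014885 to 102018690, minus strand), Il18 on chromosome 9 (50554827 to 50581840, plus strand) and Il1rap on chromosome 16 (26581704 to 26730117, plus strand). The exons of Il1b overlap those of Il1bos over 25 bases and the exons of Il18bp those of Numa1 over 80 bases, each on the opposite strand. No exon of another gene overlaps those of Il18r1, Il18rap or Il1rl1, and no other gene's transcript matched theirs over at least 200 bases at 95% identity.

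**Figure D4:**
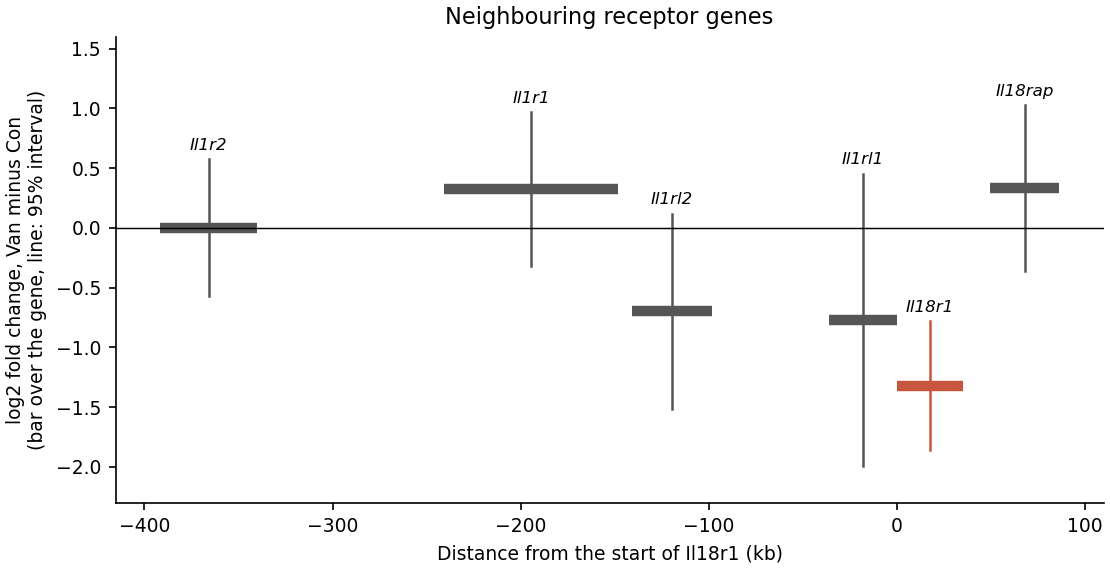
Log2 fold change in Van against Con of the 6 neighbouring receptor genes of chromosome 1 (thick bars, drawn over the extent of each gene) with the 95% interval (thin lines), against the distance from the start of Il18r1 in kb. Il18r1, in red, is the lowest at -1.32, and Il18rap, 14507 bases further on, is at 0.33.

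The DNA just upstream of both chains of the IL-18 receptor is shown because 1 of these neighbours was called in Van against Con and the other was not. For Il18r1 it is the whole stretch between the end of Il1rl1 and the start of Il18r1, chr1:40465416-40465551, and for Il18rap the stretch of equal length before its start, chr1:40515226-40515361, both 5′ to 3′ on the plus strand (RefSeq, GRCm38.p6). RefSeq lists 3 starts for Il18r1 and 1 for Il18rap, and the windows before the other starts of Il18r1 are not shown. Capitals mark matches to any of the motifs searched.
Il18r1: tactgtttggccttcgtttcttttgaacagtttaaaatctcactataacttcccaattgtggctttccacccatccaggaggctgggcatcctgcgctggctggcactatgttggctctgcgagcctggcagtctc
Il18rap: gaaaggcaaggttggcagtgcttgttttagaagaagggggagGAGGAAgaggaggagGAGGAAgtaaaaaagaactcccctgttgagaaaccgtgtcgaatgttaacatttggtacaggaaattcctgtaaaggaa
The motifs searched on both strands were the TATA box TATAAA, AP-1 TGANTCA, NF-κB (GGG and CC, 5 bases apart), the STAT site TTCNNNGAA, C/EBP TTGCNNAA, the interferon response element (GAAA repeated after 2 bases), the PU.1 core GAGGAA and the glucocorticoid response element (AGAACA and TGTTCT, 3 bases apart). None of these motifs was in the window shown for Il18r1. GAGGAA stood in that of Il18rap at -94 and at -79 from the start, and it is in 13.2% of the 32851 windows of this length upstream of RefSeq starts. The window of Il18r1 held 50.7% G and C and that of Il18rap 44.9%, against a mean of 55.0% over all windows.

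By the closeness of its pattern over the 6 mice (root mean square difference of log2(CPM + 0.1), each gene centred on its own mean, among 12683 candidates with a mean of at least 1 CPM), Il18r1 was nearest to 5031425F14Rik (0.252), Xcr1 (0.269), Zc3h6 (0.281), Fam65b (0.283) and Gm28417 (0.286). Of these, Zc3h6 and Fam65b were called lower, at log2 fold changes of -1.14 and -0.99 (edgeR, adjusted p = 0.0205 and 0.00443). A lower level in Van follows from how these genes were picked, by likeness to Il18r1 over the same mice. Over all genes tested, edgeR called 0.917% lower. Xcr1, the chemokine receptor of type 1 dendritic cells, was at 2.85, 3.50 and 3.51 CPM in Con and 1.93, 1.59 and 1.97 CPM in Van (log2 fold change -0.85, edgeR adjusted p = 0.0667). The genes nearest to Il1b were Bcl2l11 (0.0432), which promotes apoptosis, Gm340 (0.0435), Snhg20 (0.0555), Nfkbie (0.0567), an inhibitor of NF-κB, and Gm26982 (0.0568). These had smaller distances to Il1b than any gene had to Il18r1, and none of them was called by edgeR. The distance depends on counts and on the size of the change. Il1b had 11564 to 17749 counts per library and Il18r1 71 to 311, so that the distances of both genes cannot be compared directly.

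Around the 10 genes, 54 further genes of the same pathways were found in the tables, and 44 of these were tested. By edgeR 0 were called higher and 2 lower, together 4.55% against 2.00% of all genes, and 10 (22.7%) had an unadjusted p under 0.05 against 16.5% of all genes, 8 of them lower in Van. The median log2 fold change was -0.09, against -0.0014 over all genes tested, and 29 of 44 were negative.

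Among genes that sense danger, cut the precursors of IL-1β and IL-18 and release them, 10 of 10 were tested, 2 had a positive and 8 a negative log2 fold change, and the median was -0.21. Aim2, a sensor of DNA in the cytosol that builds an inflammasome (chromosome 1, 173350879 to 173466040, plus strand), was at 118, 112 and 121 CPM in Con and at 92.6, 83.9 and 83.1 CPM in Van. Every Van mouse lay below every Con mouse, and Aim2 fell by 0.44 in log2 units (standard error 0.07, edgeR adjusted p = 0.0223). Nlrp1b, a further inflammasome sensor (chromosome 11, 71153102 to 71230733, minus strand), was at 42.7, 38.6 and 33.8 CPM in Con and at 27.6, 25.5 and 26.8 CPM in Van, again without overlap, and fell by 0.53 in log2 units (standard error 0.09, edgeR adjusted p = 0.0319). Leaving out 1 mouse at a time gave adjusted p-values from edgeR of 0.0321 (without Van replicate 1) to 0.120 for Aim2, above 0.05 in the other 5 fits, and of 0.0599 to 0.141 for Nlrp1b, above 0.05 in all 6.

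Casp1, the protease itself, stood at the threshold, at 106, 103 and 102 CPM in Con and at 81.9, 78.9 and 89.8 CPM in Van (log2 fold change -0.31, standard error 0.06, edgeR adjusted p = 0.05001, just above the threshold). Over the alternatives its adjusted p ran from 7.9e-04 with DESeq2 to 0.193 without Van replicate 2. Values for Casp1 are named after they were seen, as are those for Il1a below. Gsdmd, which forms the pore through which the cut cytokines leave and which had the highest FPKM of this list, had a log2 fold change of -0.01 (standard error 0.06, edgeR adjusted p = 0.939), and Nlrp3, the best-known inflammasome sensor, one of 0.04 (standard error 0.07).

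Of the remaining IL-1 family ligands, 7 were in the tables and 1 was tested, Il1a, which signals through the same receptor as Il1b (chromosome 2, 129299610 to 129309972, minus strand). It was at 8.43, 10.3 and 9.85 CPM in Con and at 6.83, 5.86 and 5.36 CPM in Van. The groups did not overlap, with a log2 fold change of -0.66 (standard error 0.14, edgeR adjusted p = 0.0508), and over the alternatives its adjusted p ran from 0.00316 with DESeq2 to 0.176 without Van replicate 2. The exons of Il1a overlap those of Gm14023 on the opposite strand over 222 bases. The family members Il1f5, Il1f6, Il1f8 and Il1f10 were listed at 0 in each mouse. Il33 and Il1f9 were above 0 in 4 mice each and were not tested. Of 4 remaining receptors, Il1rapl1 and Il1rapl2 were listed at 0 in each mouse, and Sigirr, an inhibitory receptor of the family, had a log2 fold change of -0.35 (standard error 0.17, edgeR adjusted p = 0.368).

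Downstream of the receptors, 21 of 21 genes that carry the signal through MyD88, the IRAK kinases and TRAF6 to NF-κB and the MAP kinases were tested, and edgeR called 0 of them and DESeq2 2, Ikbkg and Mapk14. Of these 5 had an unadjusted p under 0.05, and 9 had a positive and 12 a negative log2 fold change (median -0.08). Log2 fold changes ran from -0.25 for Ikbkg, a regulatory subunit of the IκB kinase (edgeR adjusted p = 0.101), to 0.18 for Mapk14, the p38α kinase (edgeR adjusted p = 0.113). Nfkbia, an NF-κB inhibitor and itself an NF-κB target, had the highest FPKM of this list and a log2 fold change of 0.06 (standard error 0.12, edgeR adjusted p = 0.854).

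Of the IL-12 and interferon-γ genes that act with IL-18, 10 of 12 were tested, edgeR and DESeq2 each called 0, and 0 had an unadjusted p under 0.05. Of these 4 had a positive and 6 a negative log2 fold change (median -0.16). Ifng, the cytokine that IL-18 is known to induce in lymphocytes, was listed at 0 in each mouse. Ifngr1, a chain of its receptor and the gene of this list with the highest FPKM, had a log2 fold change of 0.09 (standard error 0.05, edgeR adjusted p = 0.423). Il12rb2, a chain of the IL-12 receptor, and Stat4, which transmits the IL-12 signal, both had a log2 fold change of 0.11, while Il12rb1, the other chain of that receptor, had one of -0.64 (standard error 0.39) and Il2rb, a chain of the receptors for IL-2 and IL-15, one of -0.45 (standard error 0.26).

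**Figure D5:**
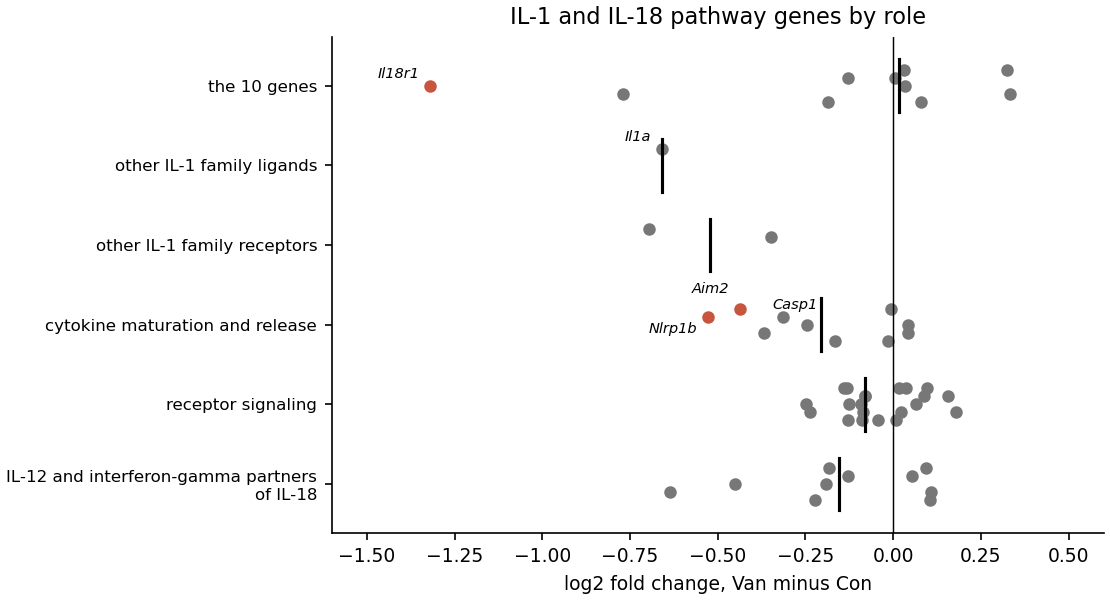
Log2 fold change in Van against Con of each gene tested, for the 10 genes and for the 5 lists of other pathway genes, with a point per gene, the median of each group as a vertical bar and genes called by edgeR in red. Il18r1 at -1.32, Nlrp1b at -0.53 and Aim2 at -0.44 are the 3 genes called, and the medians of the maturation and release list and of the signaling list are -0.21 and -0.08.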

How the data were processed

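RNA-seq libraries of splenic monocytes, 1 per mouse, were analysed for the Con (n = 3) and Van (n = 3) groups. VanLip libraries were not analysed here. For cultured monocytes the methods combine spleens of mice of a cohort, and they do not say whether this was done for RNA. The deposit named in the paper is a different one, so groups were matched to it by treatment. The authors aligned reads with HISAT2 2.2.1 and SAMtools 1.9 and quantified genes with StringTie 2.1.3. The estimated counts are used as the authors deposited them, not scaled to library size, and were rounded to whole numbers. The FPKM values were deposited by the authors and are scaled to transcript length and library size. Multiplied by 75, between 52.3% and 55.0% of the counts above 0 came out whole within 0.05, which is what coverage divided by a read length of 75 would give, while the methods state paired reads of 100 bases. If so, a count is worth about 0.375 of a fragment, the totals stand for an estimated 16.3M to 23.2M fragments, and counts printed per gene overstate fragments by the same factor. DESeq2 1.38.3 is named in the submitters' processing notes. The annotation release, the use of strand in counting and the handling of reads with several matches are not given in the sources used here. Coordinates are from GENCODE (GRCm38).

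Counts were tested in R 4.3.3 with edgeR 4.0.16 (TMM, expression filter at a minimum count of 10, quasi-likelihood test, group as the only term), with Benjamini-Hochberg adjustment over the 16138 genes tested and a call at an adjusted p of at most 0.05. CPM values are counts scaled to the TMM-normalized library. Alternatives were DESeq2 1.42.0, limma 3.58.1 on FPKM after quantile normalization (log2, pseudocount 1 or 0.1), other scalings and filters, counts scaled to fragments, the replicate number as a block, and each library left out. A single simulated data set with 200 changed genes among 16138 was drawn with the dispersions that edgeR estimated, which may favour edgeR. On it, edgeR made 138 calls with 8 false, DESeq2 181 with 37 false and limma 110 with 3 false. Differences between genes were compared by an exact two-sided permutation test over mice. The 10 genes, the lists and the tests were chosen with earlier results of these data known. The genes named are the 10, the called genes of the pathway and marker lists, the gene with the highest mean in each pathway list, the 5 genes closest in pattern to Il18r1 and to Il1b, and the neighbours of the receptor genes on chromosome 1. Other genes are named as ends of a range, as defining markers, as listed at 0 or for their role, after their values were seen.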

Additional observations from a re-analysis of the deposited data

How the results depend on the processing

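Against 322 genes called by edgeR, the number of calls was 962 with DESeq2, 39 and 4 with limma on log2(FPKM + 1) and log2(FPKM + 0.1) values, and 21 to 136 when 1 library was left out. The number of the 10 genes called was 0 with both limma fits and 0 to 1 with 1 library left out. Il18r1 had a log2 fold change of -0.52 (adjusted p = 0.0526) and -1.12 (adjusted p = 0.0962) in these limma fits, on scales where the pseudocount shrinks low genes, and of -1.48 to -1.15 with 1 library left out. Of the 44 other pathway genes, 6 were called with DESeq2, 4 with at least 10 counts in every library, 4 on the fragment scale, 0 with both limma fits and 0 to 1 with 1 library left out.

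The sign turned for Il1rn with limma (-0.0022 and -0.0030), without Con replicate 2 (-0.024) and without Van replicate 1, where the fits with 1 library left out ran from -0.077 to 0.25. It turned for Il18 and Il1rap without Van replicate 2, with ranges of -0.065 to 0.085 and of -0.025 to 0.093. For Il1r2 it turned with limma (-0.061 and -0.072) and without Con replicates 2 (-0.12) and 3 (-0.10) and Van replicate 1, with a range of -0.26 to 0.27. The difference of Il18r1 from Il1rl1 ran from -1.06 to 0.024, the last without Con replicate 2. The cause of these changes was not tested.

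With the replicate block, 110 genes were called in all, 0 of the 10 genes and 0 of the pathway genes, and Il18r1 was at -1.32 (adjusted p = 0.0948). The correlations of same-numbered Con and Van libraries were 0.08, -0.04 and -0.18, and not every library correlated best with its own number. The labels do not say how the numbers were given, so that these values cannot settle whether they pair mice. Scaling by RLE size factors or library size alone turned no sign of the 10 genes. Il1rl1, Il1r1 and Il18rap had 12 to 150 counts per library, and the part of low counts in their wide intervals was not tested.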
